A study of Rattus norvegicus with 24 samples.

Results

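This is an account of the receptor genes for GABA, glycine and glutamate in isolated microvessels and whole tissue of the rat retina and brain. The genes were chosen by a rule on their symbols, and not on measured values, among transcript clusters listed with a single gene, and 41 of 18166 genes measured in the series met the rule, each with 1 cluster. Of these, 40 encode receptor subunits, and the last, Grid2ip, encodes a scaffold protein that binds a glutamate receptor of Purkinje cells and was caught because its symbol begins like that of the receptor. There were 16 genes of GABA-A receptors (5 alpha, 2 beta, 2 gamma, 3 rho, and the delta, epsilon, theta and pi subunits), 2 of GABA-B receptors, 4 of glycine receptors, 2 of AMPA, 5 of kainate and 7 of NMDA receptors, and 4 of metabotropic glutamate receptors. Other genes of these families were not analysed here. One receptor cluster, Gria2, is listed together with a microRNA gene and was left out.

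The 4 groups were retinal microvessels (RMVs), full retinal tissue (RT), brain microvessels (BMVs) and full brain tissue (BT), all from Wistar rats that were male and 12 weeks old, with 6 arrays per group and 24 in all. Per the study's methods the material came from 6 rats, and the brains were freed of white matter, choroid plexus, meninges and surface vessels before freezing. Microvessels were obtained mechanically, by homogenization of cryosections, density gradient centrifugation and capture on a nylon mesh, so that they are a preparation of vessel fragments and not sorted cells. Each signal is a log2 value of an Affymetrix Rat Gene 2.0 ST array, normalized by the authors.

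GABA and glycine inhibit neurons through pentameric chloride channels. GABA-A receptors combine alpha, beta and gamma or delta subunits, and rho subunits form slow GABA receptors for which the retina is the classical site. Glycine receptors combine alpha subunits with the beta subunit, and GABA-B receptors act through G proteins. Glutamate excites neurons through AMPA, kainate and NMDA receptors and modulates them through metabotropic receptors. In a bulk sample, fewer cells of a type and less RNA per cell cannot be told apart.

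Vascular markers were enriched in both microvessel preparations. All 10 measured endothelial markers were higher in RMVs than in RT and in BMVs than in BT, by a median of 4.06 and 4.10 on the log2 scale, and all 9 markers of pericytes and smooth muscle cells as well. Neuronal transcripts were nevertheless measured in the microvessels: the mean signal of 14 neuronal markers was 9.09 to 9.36 on the RMV arrays and 10.11 to 10.32 on the RT arrays, and 8.83 to 9.17 on the BMV arrays and 11.69 to 11.80 on the BT arrays. The mean of 13 photoreceptor markers was 11.17 to 11.56 in RMVs and 11.49 to 11.74 in RT, against 5.56 to 5.77 in BMVs and 4.91 to 5.17 in BT. The median signal of an array was highest in RMVs (6.76 to 6.83) and lowest in BT (5.81 to 5.95). The 95th percentile of 1344 olfactory and vomeronasal receptor genes, which these tissues hardly use, stood in for background and was 6.59 in RMVs, 6.00 in RT, 6.25 in BMVs and 5.75 in BT. A gene with a group mean at or under that level is called near background.

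**Figure D1:**
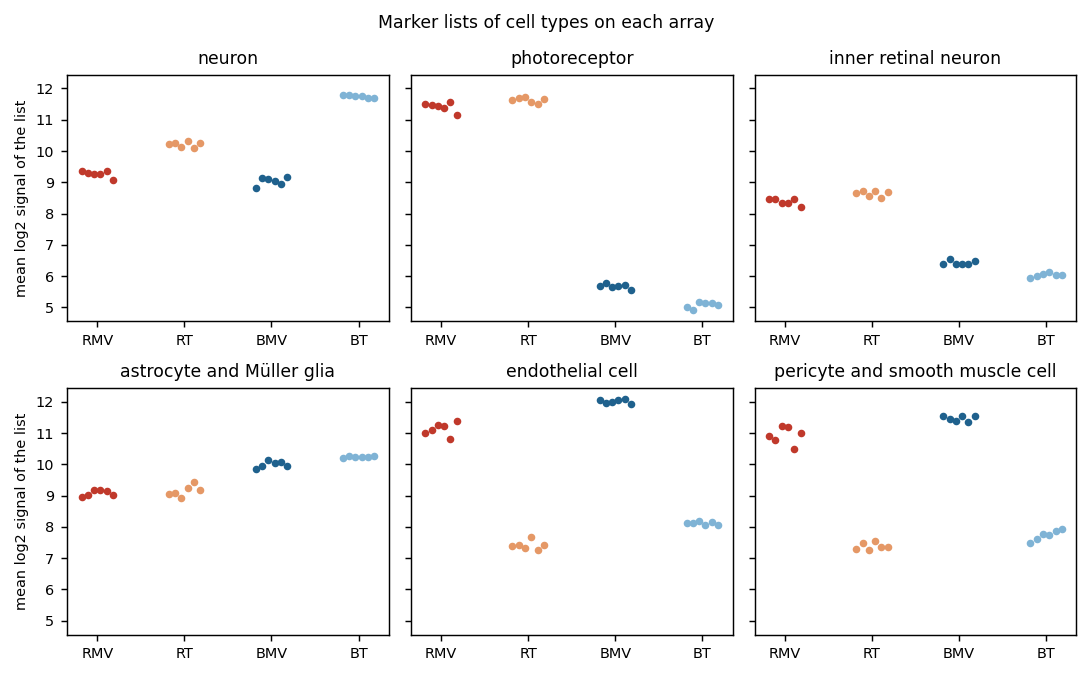
Mean log2 signal of 6 lists of cell type markers (vertical axis) on each of the 6 arrays of RMVs, RT, BMVs and BT (points). The neuronal list lies at 9.09 to 9.36 in RMVs and at 8.83 to 9.17 in BMVs, below 10.11 to 10.32 in RT and 11.69 to 11.80 in BT, and the photoreceptor list lies above 11 in both retinal groups and below 6 in both brain groups.

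On the deposited scale, most of the genes were at least 2-fold lower in brain microvessels than in brain tissue. Few reached 2-fold in retinal microvessels against retinal tissue. Higher and lower here require a 2-fold change together with an adjusted p under 0.05 in limma, with all 18166 genes adjusted together. In BMVs against BT, 27 of the 41 genes (65.9%) were lower, against 10.5% of all genes, and none was higher, against 16.3% of all genes. In RMVs against RT, 5 genes (12.2%) were lower, against 0.947% of all genes, and none was higher, against 10.3%. At an unadjusted p under 0.05 and any fold, 23 genes lay lower and 6 higher in RMVs than in RT, and 30 lower and 6 higher in BMVs than in BT. These counts were the same at an adjusted p under 0.05 and any fold. The share of all genes at these cut-offs was not counted. The higher ones were Gabra5, Gabre, Gabrp, Grid2ip, Grin2c and Grin3b in RMVs, and Gabrp, Gabrr1, Gabrr2, Gabrr3, Grid2ip and Grin3b in BMVs. All of them turned sign under other scalings, and those in RMVs except Grin2c were near background in RMVs and RT. The 5 genes lower in RMVs (Gabra3, Gabrb2, Gabrg1, Gabbr1 and Glrb) were all among the 27 lower in BMVs, and 14 genes passed in neither. The median of the 41 log2 fold changes was -0.35 in RMVs against RT and -2.03 in BMVs against BT, where the medians of all genes were 0.33 and 0.30, so that the receptor medians relative to all genes were -0.68 and -2.32.

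The count in the retina moved more with the scale than that in the brain. With quantile normalization of the 24 arrays the median of all genes became -0.15 in both comparisons, and 18 of the 41 genes were lower in RMVs than in RT and 29 lower in BMVs than in BT. With centring on the array medians 19 and 29 were lower, and with centring on the measured reference genes 26 and 29. The share of all genes called under these scalings was not counted. The receptor medians relative to all genes were -0.72 in RMVs against RT and -1.96 in BMVs against BT with quantile normalization. With both centrings they were -0.68 and -2.32, as on the deposited scale. All 5 and all 27 genes called on the deposited scale were called lower under each of these scalings, and none of the 41 was called higher. The 6 arrays of RMVs lay all below the 6 of RT for 14 of the 41 genes and all above for 5, which compares with 10.2% and 42.6% of all genes. For BMVs and BT these were 29 below and 3 above, against 21.9% and 40.8% of all genes. Neuronal markers moved in the same direction in both comparisons: 7 of 14 were lower in RMVs than in RT, with a median of -0.92, and 14 of 14 lower in BMVs than in BT, with a median of -2.80. Their part in the receptor values was not tested.

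**Figure D2:**
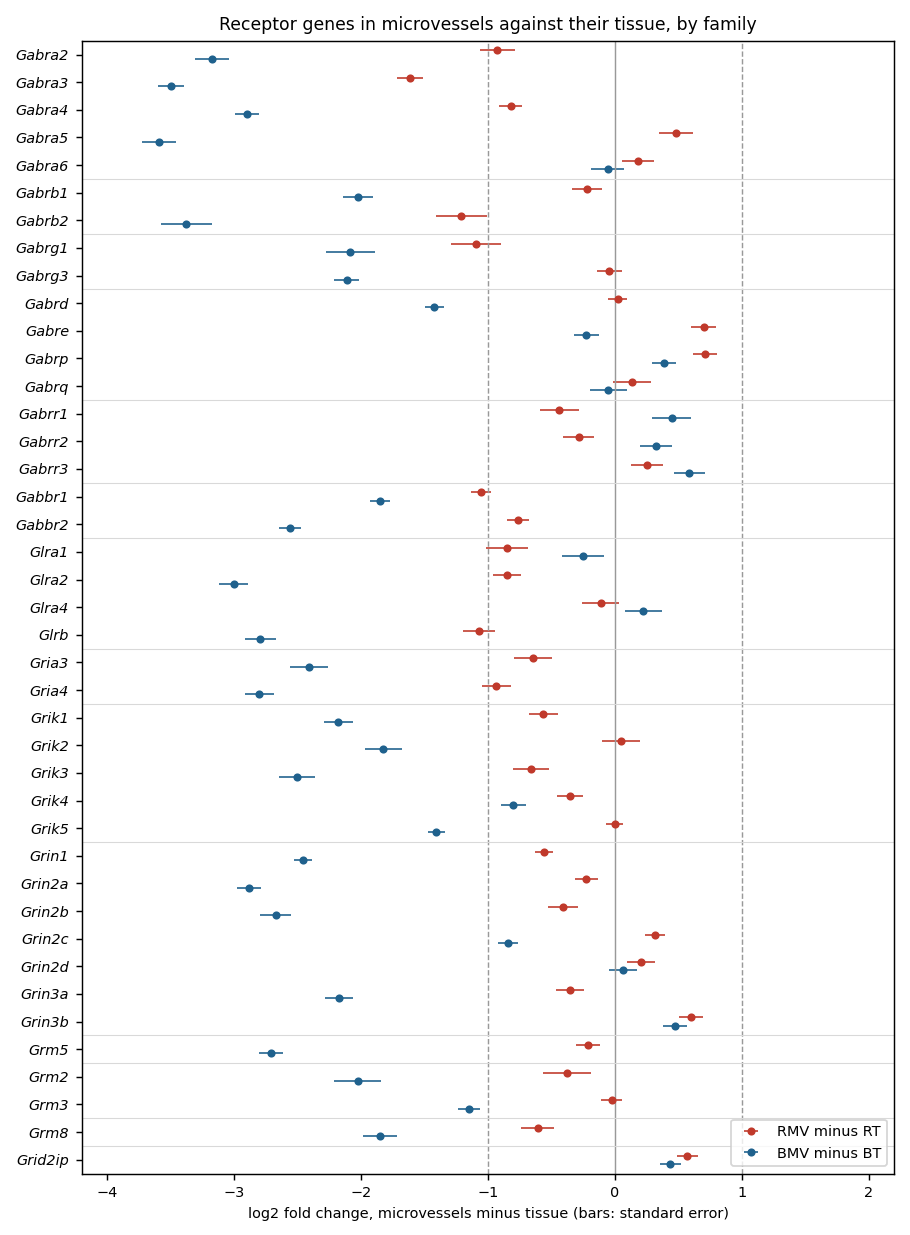
Log2 fold change of RMVs minus RT (red) and BMVs minus BT (blue) for each of the 41 genes, ordered by receptor family (grey lines between families), with standard errors from limma as bars and dashed lines at 2-fold. In BMVs 27 genes lie left of -1, while in RMVs 5 do, and the rho subunit genes lie near 0 in both.

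The alpha subunits of GABA-A receptors, which set the location and drug response of the channel, had some of the largest losses in BMVs. Gabra3, found at many inhibitory synapses, had a lowest, median and highest signal of 8.22, 8.60 and 8.93 in RMVs and 9.91, 10.17 and 10.50 in RT, and of 7.97, 8.27 and 8.33 in BMVs and 11.63, 11.73 and 11.81 in BT. The microvessel arrays lay below every array of their tissue in both organs. Its log2 fold change was -1.62 in RMVs against RT (standard error 0.103, adjusted p = 2.57e-13 from limma), the largest fall of any of the 41 genes there, and -3.50 in BMVs against BT (standard error 0.103, adjusted p = 4.55e-21).

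Gabra5, an extrasynaptic subunit known for tonic inhibition in the hippocampus, was a gene of the brain. Its signal was 5.32, 5.81 and 6.09 in RMVs (lowest, median and highest array) and 4.83, 5.26 and 5.82 in RT, near background in both, while it was 6.59, 7.03 and 7.11 in BMVs and 10.25, 10.58 and 10.78 in BT. The BT arrays lay far above all others, and the BMV arrays above all retinal arrays. It had the largest change of the 41 genes in BMVs against BT, at -3.59 (standard error 0.136, adjusted p = 7.51e-19 from limma), and the lowest value in RT against BT, at -5.28 (standard error 0.136, adjusted p = 2.45e-22). Because RT was near background, the loss in RT is given as a bound: Gabra5 was at least 23.7-fold lower in RT than in BT when the RT value is set to the background level. Between RMVs and BMVs the difference was -1.21 (standard error 0.136, adjusted p = 1.48e-08), or at least 1.30-fold lower in RMVs on the same reckoning.

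Gabra2, a synaptic subunit of the forebrain, and Gabra4, which often pairs with the delta subunit outside synapses, followed the same course in the brain. Gabra2 signals were 6.71, 7.28 and 7.41 in BMVs and 10.11, 10.39 and 10.56 in BT, which differ by -3.17 (limma, standard error 0.137, adjusted p = 1.28e-17). Gabra4 signals were 7.58, 7.73 and 7.89 in BMVs and 10.41, 10.66 and 10.77 in BT, a change of -2.90 (standard error 0.0921, adjusted p = 2.12e-20). In both cases the groups were far apart. In the retina neither reached 2-fold, although the arrays of RMVs lay below those of RT: Gabra2 had 7.02, 7.29 and 8.0 in RMVs and 8.12, 8.22 and 8.66 in RT (-0.93, standard error 0.137), and Gabra4 6.83, 7.15 and 7.38 in RMVs and 7.69, 7.93 and 8.21 in RT (-0.82, standard error 0.0921). Both were called lower in RMVs once the arrays were centred on their medians. Gabra6, a subunit of cerebellar granule cells, was near background in all 4 groups, with means of 3.66 in RMVs, 3.48 in RT, 4.08 in BMVs and 4.14 in BT.

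The beta subunits carry part of the GABA binding site and differed in the retina. Gabrb2 had signals of 7.82, 8.41 and 9.12 in RMVs and 9.32, 9.61 and 10.13 in RT, and of 7.13, 7.78 and 8.47 in BMVs and 10.91, 11.04 and 11.56 in BT. The microvessels lay below the tissue on all arrays, with a wider spread (SD 0.46 in RMVs and 0.48 in BMVs) than most of the other genes. The changes were -1.21 in RMVs against RT (standard error 0.202, adjusted p = 7.4e-06 from limma) and -3.38 in BMVs against BT (standard error 0.202, adjusted p = 1.84e-14). Gabrb1 had 6.45, 6.56 and 7.14 in RMVs and 6.64, 6.85 and 7.27 in RT, groups that overlapped (-0.22, standard error 0.118), and 7.53, 7.62 and 7.98 in BMVs and 9.43, 9.70 and 9.99 in BT, where it was lower in BMVs by a log2 fold change of -2.03 (standard error 0.118). Against BT, Gabrb1 was lower in RT with -2.81 (standard error 0.118, adjusted p = 1.34e-17).

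Of the gamma subunits, which form the benzodiazepine site together with alpha, both were lower in BMVs than in BT. Gabrg1 had 4.82, 5.15 and 5.87 in RMVs and 5.72, 6.37 and 6.61 in RT, against 7.31, 7.57 and 8.64 in BMVs and 9.61, 9.84 and 10.14 in BT. The order of the groups was BT, BMVs, RT and RMVs, and only RMVs and RT overlapped. The change was -1.09 in RMVs against RT (standard error 0.195, adjusted p = 1.76e-05 from limma), but RMVs were near background for Gabrg1, and since the RT mean of 6.30 lay under the background level of the RMV arrays no fold is given. It was -2.08 in BMVs against BT (standard error 0.195, adjusted p = 2.11e-10). Between the organs Gabrg1 had -2.58 in RMVs against BMVs (standard error 0.195, adjusted p = 9.07e-12), at least 2.29-fold lower in RMVs, and -3.57 in RT against BT (standard error 0.195, adjusted p = 4.34e-15). Gabrg3 showed -0.04 in RMVs against RT (standard error 0.0982) and -2.11 in BMVs against BT (standard error 0.0982), with 7.50 to 7.71 on the BMV arrays and 9.66 to 9.99 on the BT arrays.

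The delta subunit gene Gabrd, a marker of extrasynaptic receptors, had -1.42 in BMVs against BT (standard error 0.0742) and 0.02 in RMVs against RT. The epsilon, theta and pi genes Gabre, Gabrq and Gabrp were near background in all 4 groups, with means between 4.79 and 5.80. Gabra5 and Gabrg3 are next to each other on chromosome 1, Gabra6 and Gabrb2 on chromosome 10, and Gabrb1, Gabra4, Gabra2 and Gabrg1 lie together on chromosome 14 with 1 other gene among them. The 4 genes on chromosome 14 all had lower values in BMVs than in BT, between -3.17 and -2.03, while neighbours on the X chromosome differed, with Gabra3 at -3.50 and Gabre and Gabrq near background.

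The rho subunits, which form the GABA receptors of retinal bipolar cells, stood apart from the other GABA-A genes. Gabrr1, Gabrr2 and Gabrr3 were higher in RMVs than in BMVs and in RT than in BT, and none passed the threshold between microvessels and their tissue. Gabrr1 and Gabrr2 are next to each other on chromosome 5, and Gabrr3 lies on chromosome 11. The 250 bases before the RefSeq start of each gene are shown because the 3 genes share the retinal pattern (assembly GRCr8, written 5′ to 3′ on the strand of the gene). Capitals mark the hexamer TAATCC on either strand, the core recognised by the photoreceptor and bipolar cell factors of the Otx family such as Crx. The stretches are chr5:52320225-52320474 (plus strand) for Gabrr1, chr5:52248228-52248477 (plus strand) for Gabrr2 and chr11:54424467-54424716 (minus strand) for Gabrr3.
Gabrr1: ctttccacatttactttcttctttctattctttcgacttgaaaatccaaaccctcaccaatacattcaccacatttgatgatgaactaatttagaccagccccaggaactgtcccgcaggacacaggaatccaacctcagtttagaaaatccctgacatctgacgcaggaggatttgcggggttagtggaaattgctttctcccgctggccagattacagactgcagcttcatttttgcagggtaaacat
Gabrr2: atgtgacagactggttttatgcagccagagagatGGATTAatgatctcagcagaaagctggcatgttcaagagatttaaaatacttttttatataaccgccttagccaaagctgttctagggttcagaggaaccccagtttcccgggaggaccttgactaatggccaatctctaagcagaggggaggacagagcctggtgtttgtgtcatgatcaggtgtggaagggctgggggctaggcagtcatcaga
Gabrr3: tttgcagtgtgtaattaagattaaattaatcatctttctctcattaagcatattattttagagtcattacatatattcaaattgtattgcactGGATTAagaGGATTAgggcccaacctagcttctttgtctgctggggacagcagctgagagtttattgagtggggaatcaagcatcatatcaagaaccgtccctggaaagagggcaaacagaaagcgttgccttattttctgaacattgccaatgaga
The hexamer occurred once before Gabrr2, with its outer base 216 bases before the start, and 2 times before Gabrr3, at 157 and 148 bases, and not in the window of Gabrr1. It is found on either strand in 6.34% of 33469 promoter windows of the same length. Among the 32 members with a window it was in 2, Gabrr2 and Gabrr3, a share close to that of all windows. Other motifs were scanned as well: GGGCGG was in 13 of the 32 members and 30.5% of all windows, and TGACGTCA in 0 of the 32 and 1.59% of all windows. The match describes letters and not binding. The windows were 44.0%, 47.6% and 38.0% G and C for Gabrr1, Gabrr2 and Gabrr3, against a median of 51.2% over all windows.

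Gabrr1 had signals of 9.88, 10.44 and 10.70 in RMVs and 10.63, 10.80 and 11.09 in RT, and of 5.17, 5.30 and 5.79 in BMVs and 4.31, 4.83 and 5.45 in BT. The retinal groups were far above the brain groups and overlapped each other, and both brain groups were near background. Its log2 fold change was 5.03 in RMVs against BMVs (standard error 0.153, adjusted p = 2.39e-20 from limma) and 5.92 in RT against BT (standard error 0.153, adjusted p = 3.03e-22) on the fitted scale. Against the background level of the brain arrays Gabrr1 was at least 17.7-fold higher in RMVs than in BMVs and at least 33.8-fold higher in RT than in BT.

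Gabrr2 had 10.50, 10.90 and 11.09 in RMVs and 10.94, 11.12 and 11.23 in RT, against 5.91, 6.30 and 6.48 in BMVs and 5.55, 6.03 and 6.23 in BT. The brain values were just above background, and the separation of retina from brain was complete. The excess was 4.56 in RMVs against BMVs (standard error 0.126, adjusted p = 2.66e-21 from limma) and 5.16 in RT against BT (standard error 0.126, adjusted p = 7.5e-23). Gabrr3 had 6.89, 7.05 and 7.55 in RMVs and 6.54, 6.91 and 7.13 in RT, with brain signals of 4.68, 4.88 and 5.30 in BMVs and 3.95, 4.41 and 4.52 in BT, near background. Its excess was 2.23 in RMVs against BMVs (standard error 0.125, adjusted p = 1.65e-14) and 2.56 in RT against BT (standard error 0.125, adjusted p = 3.27e-16), which gives bounds of at least 1.87-fold and at least 2.21-fold higher.

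Between microvessels and tissue the rho genes had -0.44, -0.29 and 0.25 in RMVs against RT (Gabrr1, Gabrr2 and Gabrr3), and values of 0.45, 0.32 and 0.59 in BMVs against BT, none of them 2-fold, and the sign of the BMV values turned under other scalings. Of the photoreceptor list, none of its 13 genes passed between RMVs and RT (median -0.21), and all 13 were higher in RMVs than in BMVs (median 6.37) and in RT than in BT (median 7.40). Markers of inner retinal neurons, the class that includes bipolar cells, had a mean of 8.22 to 8.48 on the RMV arrays and 8.51 to 8.72 on the RT arrays, against 6.38 to 6.56 in BMVs and 5.95 to 6.15 in BT, and 12 of 16 were higher in either comparison of retina with brain. Their part in the rho signal of RMVs was not tested.

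**Figure D3:**
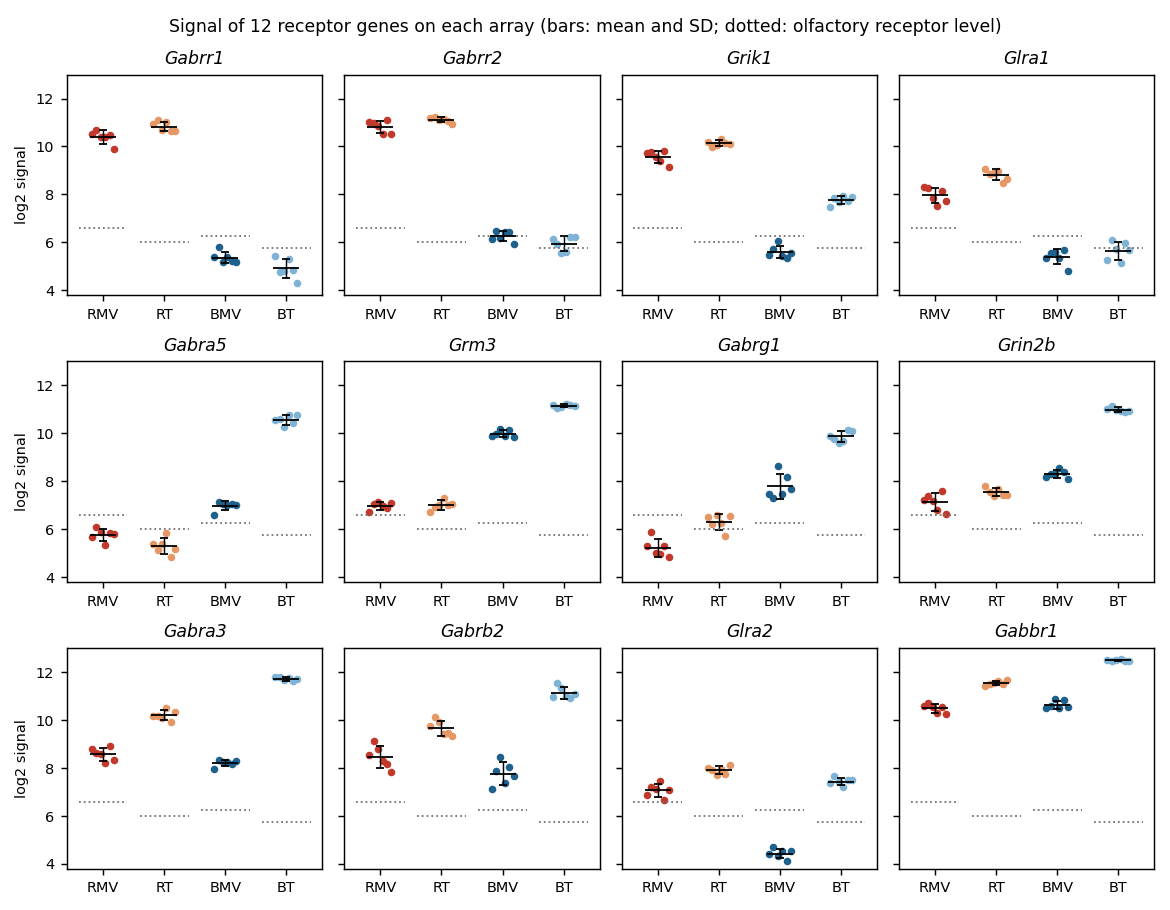
Log2 signal (vertical axis) of 12 receptor genes on the 6 arrays of RMVs, RT, BMVs and BT (points), with the mean and SD as black bars and the olfactory receptor level of each group as a dotted line. Gabrr1, Gabrr2, Grik1 and Glra1 are high in both retinal groups, Gabra5, Grm3, Gabrg1 and Grin2b are high in BT and lower in BMVs, and Gabra3, Gabrb2 and Gabbr1 lie lower in microvessels than in tissue in both organs.

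GABA-B receptors are pairs of Gabbr1, which binds GABA, and Gabbr2, which couples to the G protein. Gabbr1 had signals of 10.26, 10.55 and 10.71 in RMVs and 11.43, 11.52 and 11.66 in RT, and of 10.50, 10.57 and 10.89 in BMVs and 12.47, 12.49 and 12.54 in BT. Tissue lay above microvessels on all arrays of both organs, and the arrays of both microvessel groups overlapped. The changes were -1.06 in RMVs against RT (standard error 0.0775, adjusted p = 4.68e-12 from limma), -1.85 in BMVs against BT (standard error 0.0775, adjusted p = 7e-18) and -0.16 in RMVs against BMVs (adjusted p = 0.0751). Gabbr2 had -0.77 and -2.56 against the tissues, and -0.10 in RMVs against BMVs (standard error 0.0852 each), with the brain change called and the retinal one short of 2-fold.

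The glycine receptor alpha subunit genes Glra1 and Glra2 were higher in RMVs than in BMVs, where the beta subunit differed by under 2-fold. In RT against BT, Glra1 was higher, Glra2 was not called and the beta subunit was lower. Glra1, the main alpha subunit of the adult spinal cord, had 7.51, 7.99 and 8.31 in RMVs and 8.45, 8.88 and 9.07 in RT, against 4.82, 5.45 and 5.68 in BMVs and 5.14, 5.70 and 6.09 in BT, near background in both brain groups. The retinal arrays lay above all brain arrays. The excess was 2.57 in RMVs against BMVs (standard error 0.164, adjusted p = 2.9e-13 from limma), at least 3.29-fold, and 3.17 in RT against BT (standard error 0.164, adjusted p = 1.36e-15), at least 8.35-fold. Between RMVs and RT Glra1 had -0.85 (standard error 0.164), with no overlap of the arrays.

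Glra2, an alpha subunit known from early development and from retinal amacrine cells, was near background in BMVs and above it in the other groups. It had 6.68, 7.10 and 7.44 in RMVs and 7.71, 7.94 and 8.15 in RT, and 4.11, 4.47 and 4.70 in BMVs, near background, against 7.19, 7.45 and 7.68 in BT. The 2 tissues were close, at 0.48 in RT against BT (standard error 0.112), while the microvessels differed by 2.63 (standard error 0.112, adjusted p = 4.37e-17 from limma), at least 1.77-fold higher in RMVs than in BMVs. In BMVs against BT the change was -3.00 (standard error 0.112, adjusted p = 5.64e-19), at least 2.28-fold lower in BMVs. Glra4 had 5.97, 6.10 and 6.68 in RMVs, 5.73, 6.45 and 6.69 in RT, 4.64, 4.75 and 4.85 in BMVs and 4.27, 4.45 and 4.83 in BT. Only RT lay above background, and by little. The Glra4 excess of 1.78 in RT against BT (standard error 0.144, adjusted p = 1.68e-11) is a bound of at least 1.46-fold, and its call of 1.45 in RMVs against BMVs compared groups that were both near background, so that no fold is given.

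Glrb, the beta subunit that anchors the receptor to gephyrin, had 8.05, 8.37 and 8.68 in RMVs and 9.19, 9.37 and 9.76 in RT, and 7.73, 8.05 and 8.43 in BMVs and 10.67, 10.80 and 11.10 in BT. The microvessels lay below the tissues without overlap. The changes were -1.07 in RMVs against RT (standard error 0.124, adjusted p = 2.52e-08 from limma) and -2.79 in BMVs against BT (standard error 0.124, adjusted p = 2.71e-17), with 0.31 in RMVs against BMVs (adjusted p = 0.0284), under 2-fold, and -1.41 in RT against BT.

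The AMPA receptor genes Gria3 and Gria4, subunits of the fast excitatory channel, were lower in BMVs than in BT, with log2 fold changes of -2.41 (standard error 0.150) and -2.80 (standard error 0.112). In RMVs against RT they had -0.65 and -0.93, short of 2-fold. Gria4 was higher in RMVs than in BMVs, with 7.53 to 8.07 on the RMV arrays and 6.27 to 7.07 on the BMV arrays (1.03, standard error 0.112), a call that was lost with quantile normalization or centring on the array medians.

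Among the kainate receptor genes, Grik1 was higher in RT than in BT and the others were lower. Grik1, a subunit that serves Off bipolar cells in several mammals, had 9.16, 9.63 and 9.79 in RMVs and 9.96, 10.13 and 10.32 in RT, against 5.34, 5.50 and 6.04 in BMVs and 7.49, 7.80 and 7.94 in BT. The groups did not overlap, and BMVs were near background. Grik1 was higher in RMVs than in BMVs by 3.98 (standard error 0.113, adjusted p = 5.29e-21 from limma), at least 9.99-fold, and higher in RT than in BT by 2.36 (standard error 0.113, adjusted p = 2.48e-16). In BMVs against BT it had -2.18 (standard error 0.113), at least 2.86-fold lower in BMVs, and in RMVs against RT -0.56. The other 4 kainate genes were lower in RT than in BT, between -1.83 for Grik3 and -1.17 for Grik5, and of these the calls of Grik4 and Grik5 did not hold under every scaling. Grik2, Grik3 and Grik5 were lower in BMVs than in BT, with -1.82, -2.50 and -1.41, while Grik4 had -0.80.

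NMDA receptors combine the obligatory subunit Grin1 with Grin2 or Grin3 subunits. Grin1, Grin2a, Grin2b and Grin3a were lower in BMVs than in BT, with -2.46, -2.88, -2.67 and -2.17, and none of the 7 NMDA genes passed in RMVs against RT, where the values were between -0.56 for Grin1 and 0.60 for Grin3b. Grin2a, the prevalent partner in the adult forebrain, had signals of 7.08, 7.19 and 7.26 in RMVs, 7.27, 7.40 and 7.61 in RT, 6.93, 7.35 and 7.55 in BMVs and 9.99, 10.17 and 10.58 in BT. The BT arrays stood far above the other groups, which lay close together. The change was -2.88 in BMVs against BT (standard error 0.0942, adjusted p = 3.65e-20 from limma) and -2.80 in RT against BT (standard error 0.0942, adjusted p = 9.41e-20).

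Grin2b, the subunit that prevails early in life, had a level in BMVs between those of BT and the retina. Its signals were 6.62, 7.19 and 7.61 in RMVs and 7.37, 7.48 and 7.82 in RT, and 8.09, 8.30 and 8.55 in BMVs and 10.87, 10.94 and 11.15 in BT. BMVs lay above both retinal groups and below BT with no overlap. Grin2b was lower in RMVs than in BMVs with -1.17 (limma, standard error 0.121, adjusted p = 3.55e-09), and lower in RT than in BT with -3.43 (standard error 0.121, adjusted p = 2.68e-19). Grin2c, a subunit of cerebellum and astrocytes, had -0.84 in BMVs against BT and -1.64 in RT against BT (standard error 0.0804 each), and 0.32 in RMVs against RT. Grin2d stayed within 0.43 in all of these comparisons, and Grin3b was near background in all 4 groups.

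Of the metabotropic receptors, Grm5 couples to phospholipase C, and Grm2, Grm3 and Grm8 lower cyclic AMP. Grm3, a receptor of astrocytes and neurons, had signals of 6.71, 7.01 and 7.12 in RMVs and 6.72, 7.01 and 7.32 in RT, against 9.84, 9.94 and 10.18 in BMVs and 11.05, 11.15 and 11.22 in BT. The retinal groups overlapped fully, and both brain groups lay above them on every array. Grm3 was lower in RMVs than in BMVs with -3.01 (standard error 0.0847, adjusted p = 4.05e-21 from limma) and lower in RT than in BT with -4.14 (standard error 0.0847, adjusted p = 1.61e-24). In BMVs against BT it had -1.15 (standard error 0.0847, adjusted p = 1.48e-12), the smallest change among the 27 genes called there. The mean of 10 astrocyte and Müller glia markers was 8.96 to 9.19 in RMVs and 8.91 to 9.43 in RT. It was 9.85 to 10.15 in BMVs and 10.20 to 10.25 in BT. The group means were in the same order as those of Grm3, but the markers did not move together. In RT against BT 6 were lower and 2 higher, and in RMVs against BMVs 5 lower and 1 higher. In BMVs against BT 3 were lower and 1 higher. The part of these cells in the Grm3 values was not tested.

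Grm5 was lower in BMVs than in BT, with signals of 6.66, 6.79 and 6.96 in BMVs and 9.33, 9.54 and 9.62 in BT (-2.71, standard error 0.0949, adjusted p = 1.49e-19 from limma), and it had 6.45, 6.82 and 7.16 in RMVs and 6.82, 6.99 and 7.23 in RT (-0.21, standard error 0.0949). The microvessels of both organs thus overlapped, at 0.02 in RMVs against BMVs (adjusted p = 0.892). Grm2 and Grm8, receptors of nerve endings, were lower in BMVs than in BT with -2.03 (standard error 0.187) and -1.85 (standard error 0.132), and Grm8 was near background in BMVs, which gives at least 3.14-fold lower. Their values in RMVs against RT were -0.38 and -0.61.

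Set against each other by organ, the tissues differed in more of these genes than the microvessels did. In RT against BT, 23 of the 41 genes (56.1%) were lower, against 11.1% of all genes, and 6 (14.6%) were higher, against 6.29%. In RMVs against BMVs, 4 (9.76%) were lower, against 5.25% of all genes, and 8 (19.5%) were higher, against 5.72%. The higher genes in RMVs were Gabrr1, Gabrr2, Gabrr3, Glra1, Glra2, Glra4, Grik1 and Gria4, and the lower ones Grm3, Gabrg1, Gabra5 and Grin2b. The 6 genes higher in RT were the 3 rho genes, Glra1, Glra4 and Grik1. For 31 of the 41 genes the difference between RMVs and BMVs was smaller than that between RT and BT, with a median absolute size of 0.691 for the microvessels and 1.64 for the tissues, where all genes had 0.348 and 0.402. Signs were opposite for 15 genes. Across the scalings the genes lower in RT numbered 18 to 25 and those higher 6, and Gabrd, Gabrg3, Grik4, Grik5 and Grin1 did not hold under every one. The median of the 41 was 0.13 in RMVs against BMVs and -1.22 in RT against BT, with 0.08 and 0.02 for all genes.

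**Figure D4:**
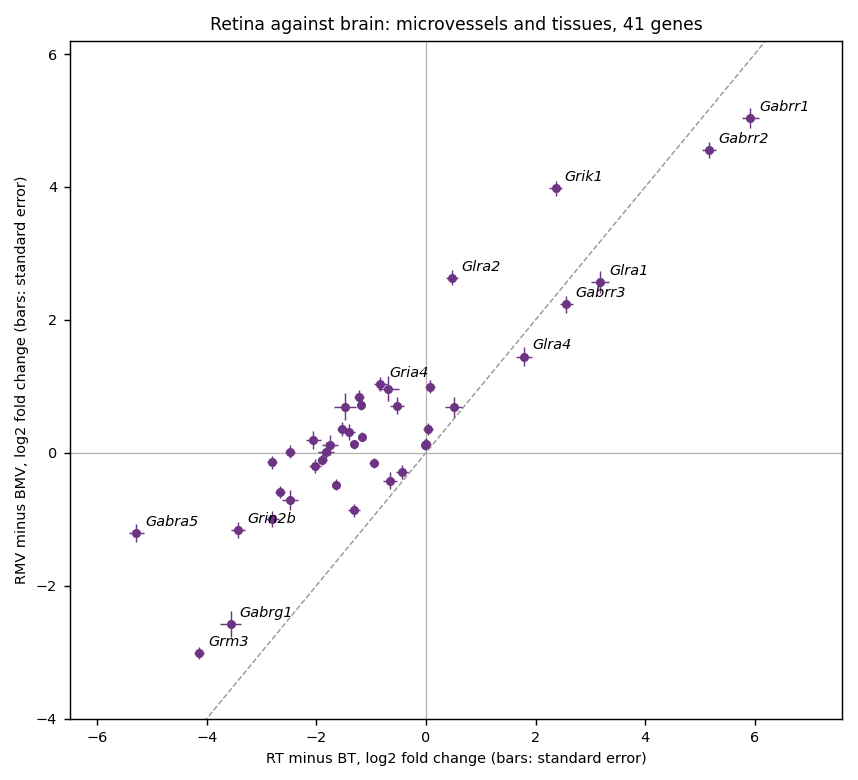
Log2 fold change of RMVs minus BMVs (vertical axis) against RT minus BT (horizontal axis) for the 41 genes, with standard errors from limma as bars; the dashed line marks equal differences, and the 2 axes share no arrays. Most genes lie left of 0 and nearer to 0 on the vertical axis, as Grin2a with -2.80 in the tissues and -0.15 in the microvessels, while the rho genes, Grik1 and Glra1 lie at the upper right.

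The difference between the fold changes of the 2 organs was tested directly. In (RMVs minus RT) minus (BMVs minus BT), 26 of the 41 genes (63.4%) were higher, which means a more positive change in the retina than in the brain, against 10.4% of all genes, and none was lower, against 5.15%. At an unadjusted p under 0.05, 31 were higher and 3 lower, a cut-off at which the share of all genes was not counted. Gabra5 had the largest value, at 4.07 (standard error 0.192, adjusted p = 1.32e-15 from limma), although its retinal fold change compares groups near background. Grin2a followed with 2.66 (standard error 0.133, adjusted p = 4.37e-15), Grm5 with 2.50 (standard error 0.134, adjusted p = 1.53e-14), Grin2b with 2.26 (standard error 0.171, adjusted p = 1.13e-11), Gabra2 with 2.25 (standard error 0.193, adjusted p = 1.44e-10) and Gabrb2 with 2.17 (standard error 0.286, adjusted p = 3.18e-07). Grin2a, Grm5 and Grin2b had RT means of 7.41, 7.02 and 7.55, not far above the RMV background level of 6.59. This limits the retinal fall that could be seen for them. The same limit holds for Gabrb1, Gabrd, Grik2, Grik5, Grin2c, Grin3a, Grm3 and Grm8, which were also called higher. Their RT means lay between 6.88 for Grin2c and 7.52 for Grik2. The rho genes had -0.89, -0.61 and -0.33. With quantile normalization 23 genes were higher, and the calls of Grin2c, Grm3 and Grm8 did not hold under every scaling.

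The signal range sets what could be seen. Near background lay 11 of the 41 genes in RMVs, 7 in RT, 13 in BMVs and 10 in BT, and 24 were above it in all 4 groups. Near background in all 4 groups were Gabra6, Gabre, Gabrp, Gabrq, Grin3b and Grid2ip, none of which was called in any comparison. The 27 genes lower in BMVs than in BT were all above background in BT, the level from which a fall can be seen. Gabrr2, Grik4, Grin2c and Grin2d were also above background in BT but were not called lower in BMVs. In the retina the signal of several genes in RT left little room for a 2-fold fall in RMVs. Among them were Gabrb1, Gabrd, Grin2c and Grin3a, with RT means of 6.90, 6.92, 6.88 and 7.11 against an RMV background level of 6.59. BT had the highest group mean for 28 of the 41 genes, RMVs and RT for 6 each and BMVs for 1. All genes were not ranked in this way, and the groups differ in array median, which was lowest in BT.

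Genes that supply and remove the transmitters were lower or not called in BMVs against BT, except Slc6a13, which was higher. Of all genes, 0.947% were lower and 10.3% higher in RMVs than in RT, and 10.5% lower and 16.3% higher in BMVs than in BT. Of 7 genes of GABA supply and removal, 1 was lower in RMVs than in RT, and 4 were lower and 1 higher in BMVs than in BT. The GABA synthesis genes Gad2 and Gad1 had -1.12 and -0.97 in RMVs against RT, and -3.06 and -2.16 in BMVs against BT, and the GABA transporter gene Slc6a11 had -0.83 and -1.85. Slc6a13, a GABA transporter of the meninges and liver, went the other way in the brain with 4.48 (standard error 0.260, adjusted p = 8.77e-15 from limma), against 0.28 in the retina, and 8 of 8 fibroblast markers were higher in BMVs than in BT (median 3.59) and 6 of 8 in RMVs than in RT (median 1.66), whose part in these values was not tested. Of 10 genes of glutamate supply and removal, 2 were lower in RMVs than in RT and 4 in BMVs than in BT: the vesicular transporter gene Slc17a6 had -1.35 and -1.85 (near background in BMVs, at least 2.02-fold lower), Slc17a7 -0.61 and -2.79, and the glial uptake gene Slc1a3 -1.35 and -0.88. Of 5 glycine genes, none passed in RMVs and only the glycine-cleaving Gldc in BMVs (-1.33), where it was near background, which gives at least 1.96-fold lower.

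Genes of proteins that bind or act with the receptors were mostly lower in BMVs than in BT, where 10.5% of all genes were lower. Of 32 scaffold and auxiliary genes of glutamate receptors, 26 were lower in BMVs than in BT and none higher, with a median of -1.72, and the scaffold gene Dlg2 had -3.15, the AMPA receptor partner genes Cacng3 -3.04 and Cnih3 -2.92. In RMVs against RT, 3 were lower (Shank1 with -1.21, the kainate receptor partner Neto2 with -1.15 and Dlg2 with -1.13) and Shank3 was higher with 1.27, and their median was -0.29. Of 12 genes listed for inhibitory receptors, including the chloride carriers Slc12a5 and Slc12a2, 7 were lower in BMVs than in BT. The largest falls were in the neuronal chloride exporter gene Slc12a5 with -2.72, the GABA-B partner Kctd16 with -2.23 and Shisa7, a GABA-A partner, with -1.87. In RMVs against RT none of the 12 was lower, and Slc12a2, a chloride importer also of endothelial cells, was higher with 1.27 (standard error 0.0792, adjusted p = 1.72e-13 from limma).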

How the data were processed

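RNA of RMVs, RT, BMVs and BT was hybridized to 1 array per sample (24 arrays), and groups and replicate numbers were taken from the labels. The deposited values are log2 signals that the authors normalized in the Affymetrix Expression Console (version 4.0, per the submitters' processing notes). Which normalization method and which annotation build they used is not stated in those notes or in the methods. The values were used without further normalization.

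Clusters with 1 gene symbol were kept (18511 of 36685, symbols updated through Entrez identifiers), and of several clusters of a gene the one with the highest mean, which left 18166 genes. Receptor genes were selected by symbol. The members, the gene lists and the tests were chosen with earlier results of these data known. Some receptor genes are not reported here.

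All 4 groups entered 1 linear model in limma 3.58.1 (R 4.3.3) with no term for the replicate number and with moderated variances (5.73 prior degrees of freedom). The 5 contrasts set each microvessel group against its tissue, RMVs against BMVs, RT against BT, and the change in the retina against that in the brain, and they share arrays. Calls needed a 2-fold change and a Benjamini-Hochberg adjusted p under 0.05, two-sided, and the model was tested on simulated data. Signals are given per array as lowest, median and highest. The genes described in full are the up to 6 called with the largest change in each direction of each contrast. Bounds set the dimmer group to the olfactory receptor level of its arrays where it lay below it. They apply to the deposited scale and were not recomputed under the other scalings. The background of the brighter group was not taken off. The olfactory receptor level was 0.35 higher in RMVs than in BMVs and 0.24 higher in RT than in BT. Alternatives were quantile normalization, centring on array medians or on the 3 measured reference genes, the mean of clusters, filters on dim genes, fits of the compared groups alone, a replicate block, eBayes with trend and robust, a 1.5-fold threshold and leaving out each array. The number of arrays limits the precision. Promoter sequences are from RefSeq (GRCr8), with 32 of the 41 genes matched by Entrez identifier.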

Additional observations from a re-analysis of the deposited data

Results flagged for a closer look

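Single arrays stood apart for 2 of the 80 sets of 6 arrays looked at, where chance gives about 1 in 20. Both were in BMV replicate 1: Gabra2 had a signal of 6.71 there, against 7.15 to 7.41 on the other BMV arrays, and Gabra5 had 6.59, against 7.0 to 7.11. Without this array the count of receptor genes lower in BMVs than in BT stayed at 27.

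The change between microvessels and tissue differed between retina and brain in the direct test for the 6 genes with the largest values, which were 4.07 for Gabra5, 2.66 for Grin2a, 2.50 for Grm5, 2.26 for Grin2b, 2.25 for Gabra2 and 2.17 for Gabrb2 on the log2 scale. Gabra5 was near background in both RMVs and RT, so that a fall in the retina could not have been seen for it. For Grin2a, Grm5 and Grin2b the room for a fall was small, with RT means of 7.41, 7.02 and 7.55 against an RMV background level of 6.59.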

How the results depend on the processing

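The 39 fold changes described in full kept their direction and their call in all 870 settings that gave a value. Counts of called receptor genes moved as follows, while the share of all genes called was counted only on the deposited scale at 2-fold. In RMV minus RT, where 5 genes were lower and 0 higher, 14 were lower and 3 higher at a 1.5-fold threshold (the higher ones were Gabre, Gabrp and Grin3b, all near background), and 18 were lower with quantile normalization, 19 with array median centring and 26 with reference gene centring. The cause was not tested. In BMV minus BT, 1 gene (Gabrr3, near background in both groups) was higher at 1.5-fold, against 0. In RMV minus BMV, 15 genes were higher and 8 lower at 1.5-fold, 4 higher and 2 lower without genes below the median signal, where fewer genes are tested, and 7 lower with array median centring, against 8 and 4. In RT minus BT, 3 genes were higher without genes below the median, against 6. For the difference of both organs, 3 genes were lower at 1.5-fold (Gabrr1, Gabrr2 and Glra1) and 1 with reference gene centring, against 0. Gabrr1 and Glra1 were near background in both brain groups. With 1 array left out, genes lower in RMVs than in RT numbered 5 to 6, higher in RMVs than in BMVs 8 to 10, lower there 4 to 5, and higher in the difference 26 to 27, with 27 lower in BMVs than in BT throughout.

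Replicate numbers are not tied to rats by the labels, and arrays of the same number did not deviate together for every pair (correlations of 0.0355 to 0.15 between RMVs and RT, and -0.0855 to 0.12 between BMVs and BT). The replicate block left the counts at 5, 27, 8 and 4, 6 and 23, and 26. Genes near background could hide differences at this signal.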
